A study of Mus musculus with 3 samples.

Results

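The genes described here encode the proteins of the cytosolic ribosome. They were chosen by name: protein-coding genes whose mouse symbol begins with Rpl or Rps followed by a digit, together with Rplp0, Rplp1, Rplp2 and Rpsa, without the S6 kinases and without pseudogenes. The rule found 86 genes among the 54331 features of the deposited table, and 82 of them had a mean value of at least 10 and were tested. Expression was measured by stranded mRNA sequencing of RAW 264.7 cells, a macrophage line that the labels assign to a male BALB/c background. All 3 libraries came from cells given lipopolysaccharide (LPS, a bacterial ligand of the receptor TLR4) at 100 ng/mL for 5 h, and cells without LPS were not analysed here. The control library (1 library, genotype labelled wild-type) carried a control shRNA. The other 2 libraries, labelled GIV-depleted, carried shRNA 1 or shRNA 2 against GIV (Girdin, gene Ccdc88a), a guanine nucleotide exchange modulator of trimeric G proteins. The sources used here do not say how the shRNAs were delivered or whether the cells were clones.

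The name rule was checked against the annotation. It left out 278 features not annotated as protein-coding and 6 features annotated as protein-coding whose symbols carry the pseudogene ending. It kept Rps19bp1, which encodes a binding partner of Rps19 and is not itself a ribosomal protein. It missed Fau, which encodes a ribosomal protein fused to a ubiquitin-like protein and is described with the related genes near the end. Of the 4 members that were not tested, Rpl10l, Rpl39l and Rps27rt were listed at 0 in all 3 libraries. Rpl3l, known as a striated muscle form of Rpl3, had values of 5.60 in the control, 14.5 in the shRNA 1 library and 4.80 in the shRNA 2 library.

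The label of the shRNA 2 library was not borne out by the mRNA of the targeted gene. Ccdc88a had a normalized count of 2580 (control), 1734 (shRNA 1) and 2561 (the library labelled shRNA 2). The shRNA 1 library was lower, with a log2 difference of -0.57, whereas the library labelled shRNA 2 differed from the control by -0.01. Values given for shRNA 2 are those of the library with that label. All 8 macrophage markers were detected, with summed values of 404362 in the control, 311417 with shRNA 1 and 333086 with shRNA 2. None of 5 fibroblast, 4 epithelial and 4 T cell markers reached a mean of 10, against 1 of 3 B cell, 1 of 3 neutrophil and 2 of 3 dendritic cell markers. Library totals were 49088771, 49756670 and 47349097 normalized counts for the control, shRNA 1 and shRNA 2.

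A ribosome consists of a small subunit, which reads the mRNA, and a large subunit, which joins amino acids and passes the growing chain through an exit tunnel. Its proteins are needed in nearly equal numbers, and their mRNAs are among the most abundant of a growing cell. In mammals nearly all of these mRNAs begin with a run of pyrimidines, the 5' terminal oligopyrimidine (TOP) tract, through which the kinase complex mTORC1 controls their translation. Such control changes how often an mRNA is translated and need not change its abundance, which is what was measured here. Ribosomal protein genes have also given rise to many processed pseudogenes, copies of the spliced mRNA inserted elsewhere in the genome.

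The pyrimidine-rich start is shown for 6 members, the tract being the feature that ties these genes to translational control. The windows are from RefSeq (GRCm38.p6), run 5′ to 3′ on the gene's strand and hold 15 bases before the annotated start and 15 from it onward. Capitals mark runs of at least 5 C or T.
Rps6 (chr4:86857353-86857382, minus strand): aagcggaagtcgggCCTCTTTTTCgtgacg
Rps15a (chr7:118116133-118116162, minus strand): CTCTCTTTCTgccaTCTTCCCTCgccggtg
Rps18 (chr17:33955651-33955680, minus strand): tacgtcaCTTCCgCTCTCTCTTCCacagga
Rpl35 (chr2:39005117-39005146, minus strand): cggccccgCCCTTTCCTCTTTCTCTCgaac
Rps10 (chr17:27635230-27635259, minus strand): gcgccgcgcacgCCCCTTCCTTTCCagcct
Rplp2 (chr7:141447636-141447665, plus strand): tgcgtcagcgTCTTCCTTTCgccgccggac
In each window a pyrimidine run lies across the annotated start or within a few bases of it. The 6 genes include members with higher and with lower values in the shRNA libraries.

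Promoters of 62 tested members, 73 start sites in all, were found in the RefSeq table. A run of at least 7 C or T within 25 bases of the start was present in 54.8% of them, compared with 29.3% of all 32851 promoters in the table and 19.1% of the promoters of ribosome biogenesis genes. Runs of A or G of the same length were present in 17.8% of the members' promoters and 32.0% of all promoters. Over the whole window of 250 bases before to 50 after the start, and on both strands, the ETS-type motif CCGGAAG was present in 35.6% of the members' promoters and 8.86% of all. The YY1-type motif AAGATGGC was present in 11.0% and 2.75%, the SP1-type motif CCCCGCCC in 31.5% and 17.6%, and TATAAA in 9.59% and 13.6%. In promoters of ribosome biogenesis genes the shares were 40.4% (ETS), 4.26% (YY1), 29.8% (SP1) and 6.38% (TATAAA). The ETS-type and SP1-type shares above those of all promoters were thus not particular to the members. All of these are matches of letters and not measured binding sites.

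Ribosomal protein mRNAs held nearly the same share of every library. The 86 genes made up 4.33% of all normalized counts in the control, 4.30% with shRNA 1 and 4.34% with shRNA 2. Large subunit genes held 2.45%, 2.42% and 2.43%, and small subunit genes held 1.83%, 1.82% and 1.85%. By comparison, the mitochondrially encoded genes held 1.43%, 0.995% and 1.14%. In a bulk library fewer cells with an mRNA and less of it per cell cannot be told apart.

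Levels differed far more between members than between libraries. By normalized count, Rpsa was highest, at 97584 in the control, 90912 with shRNA 1 and 106718 with shRNA 2. Rpsa encodes a small subunit protein that is also known as a laminin receptor precursor. Rpl4, a protein that lines the exit tunnel, followed with 76796, 81043 and 75826. This order holds for each gene's own feature. Summed with the copies described below, Rplp0 had 97028, 94126 and 94810, Rpsa 97866, 90982 and 106923, and Rpl4 76802, 81053 and 75831. Rplp0 then lay above Rpl4 in every library and above Rpsa with shRNA 1. Per kilobase of annotated transcript, the order was different. Rps27a, a ubiquitin fusion of the small subunit, was first with 73127, 75270 and 69947 normalized counts per kb, and the stalk protein gene Rplp1 was second with 70534, 68810 and 65279. Rpl10, Rps27 and Rpl19 followed with mean levels of 66629, 66193 and 64201 per kb. Over the libraries the range of Rplp1 overlapped those of Rps27a and of these 3 genes, so the order of neighbours is not resolved. This order, too, holds for each gene's own feature, and levels per kb here and below leave out copies. Rplp0 had a mean of 35190 per kb on its own. Its copies held 49.9% of its summed value, so with copies its place would be higher.

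The lowest tested member per kb was Rps19bp1, at 1225, 1262 and 879 in the control, shRNA 1 and shRNA 2 libraries. Rpl7l1, a paralog of Rpl7, was next with 3562, 3513 and 3700. Rps7 and Rps18 had mean levels of 4313 and 4500 per kb, and both have copies with more counts than the gene itself. Copies held 89.6% of the summed value for Rps7 and 92.6% for Rps18. Their low place therefore holds only for the gene's own feature. Rps15a had a mean of 5006 per kb over an annotated transcript of 5130 bases, which makes its level per kb depend on the transcript chosen. The median level per kb over 46 large subunit genes was 28712 in the control, 27566 with shRNA 1 and 25076 with shRNA 2. Over 31 small subunit genes the medians were 35119, 33944 and 32788.

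**Figure D1:**
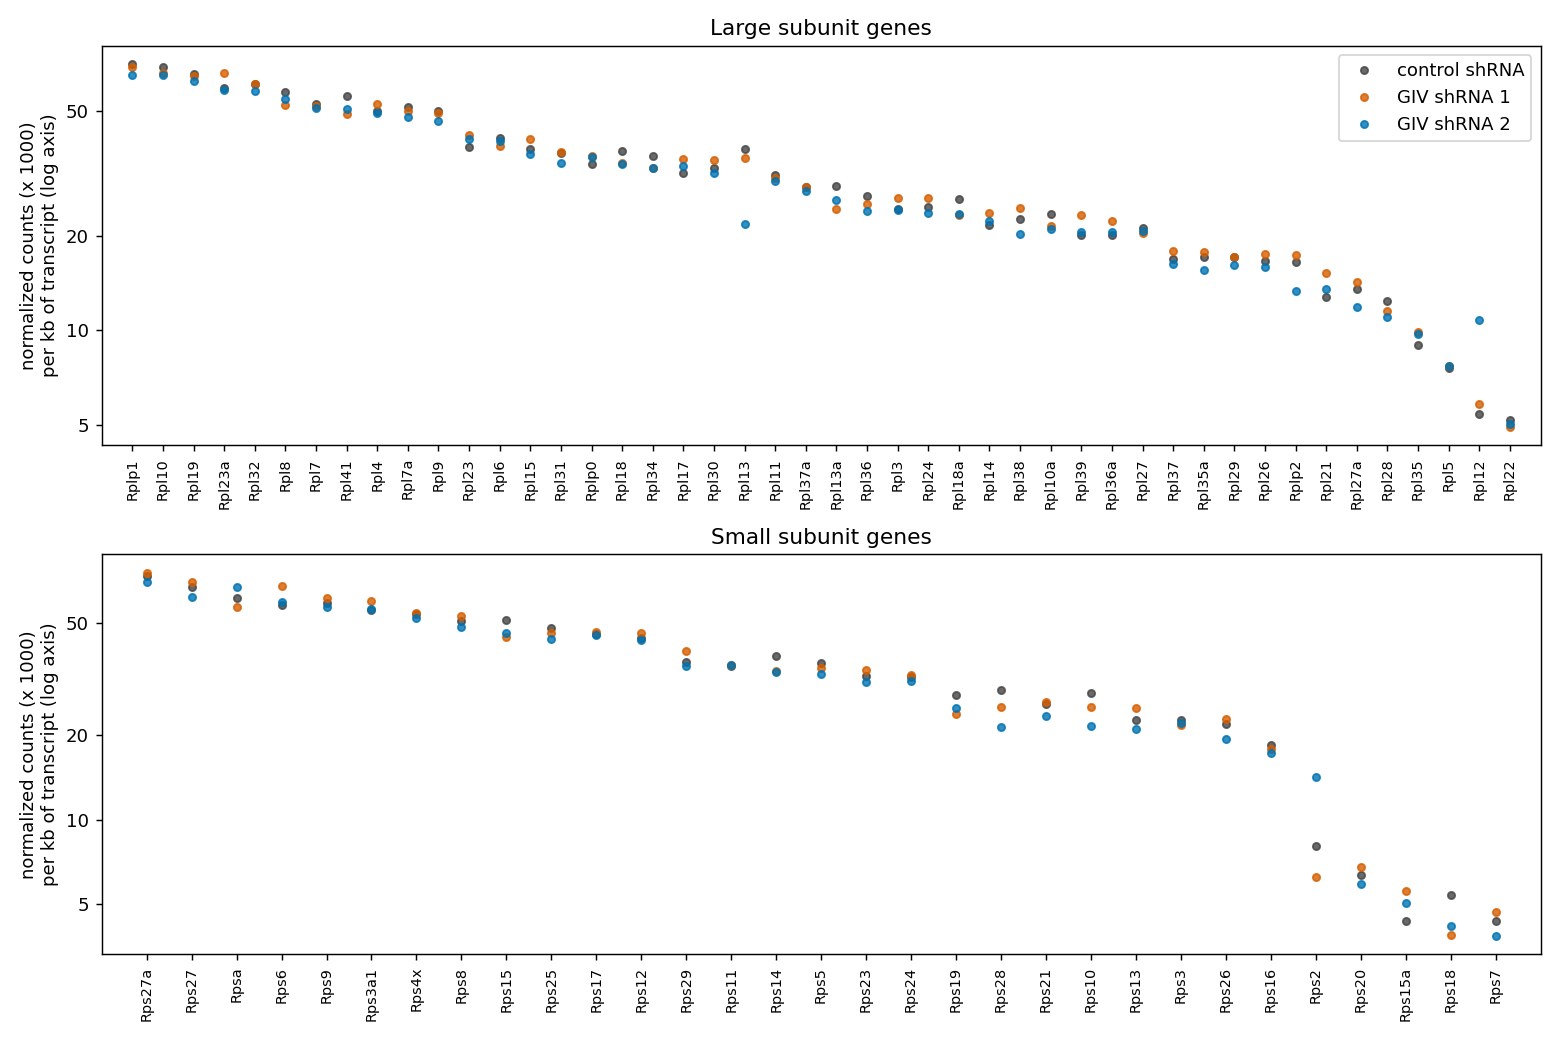
Normalized counts per kb of transcript (log axis, in units of 1000) of the tested large subunit genes (top) and small subunit genes (bottom), ordered by mean level, with 1 point per library. The 3 libraries lie close together for most genes, and the library labelled shRNA 2 stands apart for Rpl13, Rpl12 and Rps2.

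The comparison set the libraries labelled GIV-depleted against the control, all under LPS. In the library labelled shRNA 2 the mRNA of the targeted gene was not lower, so the label does not stand for a measured loss there. No ribosomal protein gene passed limma's test of both GIV shRNA libraries against the control at an adjusted p of 0.05, and neither did any of the 13877 features tested (background 0%). At an unadjusted p under 0.05, limma gave 1 of 82 members, Rps18, and 963 features (6.94%). The model has 1 residual degree of freedom, and the labels do not say that the libraries came from separate cultures, so p-values measure only the spread between these libraries. An exact permutation test of 1 library against 2 cannot give a p below 0.33. Differences are therefore given as values on the log2(value + 1) scale.

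Most members differed little from the control. Of the 82, 15 were higher in both GIV shRNA libraries, 31 were lower in both and 36 were on opposite sides. Of all features, 34.9% were higher in both and 35.2% lower in both, so the members' share higher in both lies below the background and their share lower in both near it. This split depends on the scaling. With the trend on GC content and length removed, 35 members were higher in both and 18 lower (34.2% and 34.0% of all features). With equal library totals 24 were higher and 28 lower (37.0% and 32.7% of all features). After quantile normalization 25 were higher and 24 lower (32.3% and 38.0% of all features). The members' median difference was 0.02 with shRNA 1 and -0.06 with shRNA 2.

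The members were tightly grouped around those medians. The interquartile range of their differences was 0.16 with shRNA 1 and 0.13 with shRNA 2, compared with 0.45 and 0.45 over all features and 0.28 and 0.29 over the 2056 features with a mean of at least 5000. Of the 82, 68 lay within 0.2 of the control in both libraries, as did 4024 of all 13877 features and 976 of the 2056 with a mean of at least 5000. With shRNA 1 no tested member was 1.5-fold higher or lower, where 8.83% and 7.85% of all features were. With shRNA 2, Rpl12 and Rps2 were at least 1.5-fold higher (9.99% of all features) and Rpl13 at least 1.5-fold lower (7.19%). Set against shRNA 1, these 3 genes were again past 1.5-fold, Rpl12 and Rps2 higher (8.96% of all features) and Rpl13 lower (6.54%) with shRNA 2.

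**Figure D2:**
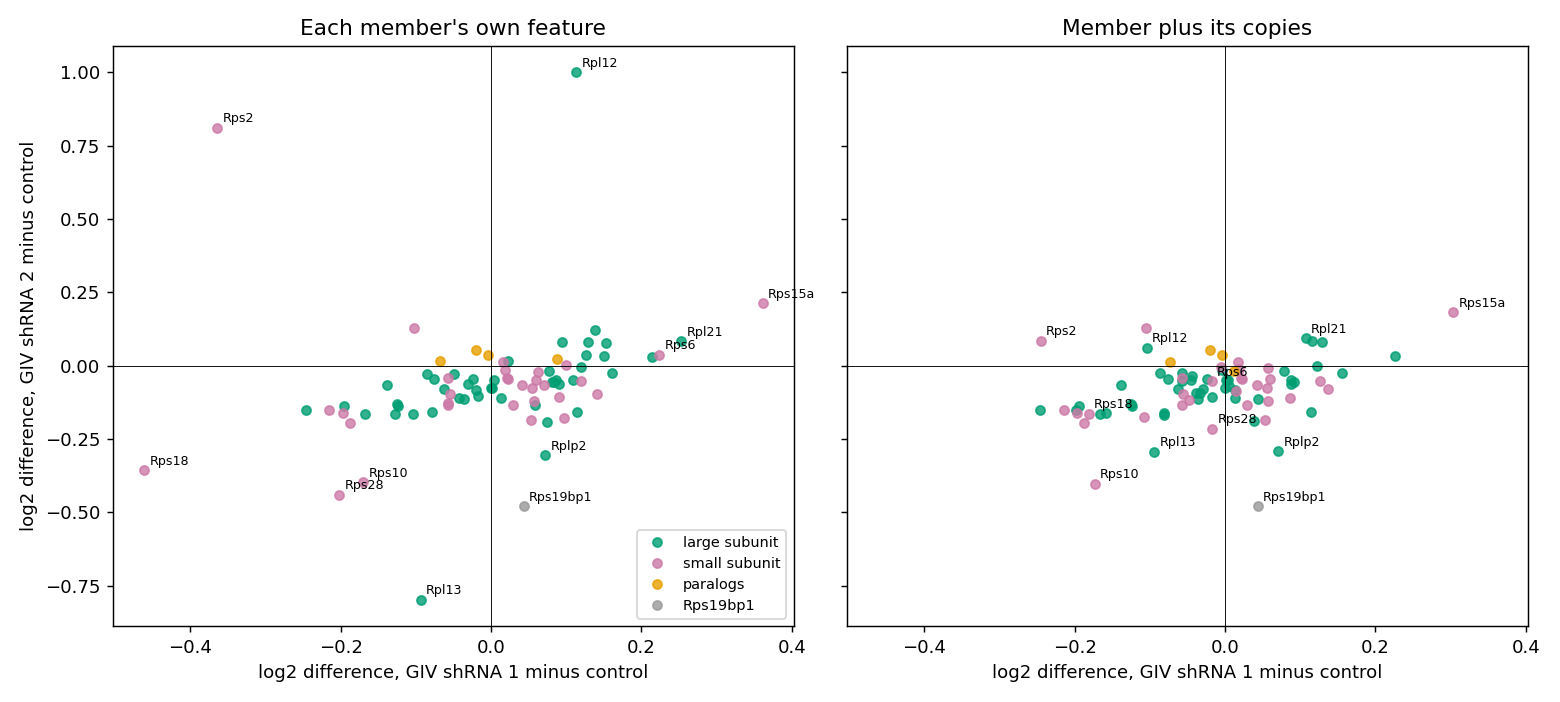
Log2 difference from the control with shRNA 1 (x axis) and with shRNA 2 (y axis), 1 point per tested gene, for the gene's own feature (left) and for the gene summed with its copies (right). Rpl12, Rps2 and Rpl13 lie far from the others on the left, at 1.0, 0.81 and -0.80 with shRNA 2, and within 0.30 of 0 on the right.

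The stalk recruits the elongation factors to the large subunit, and its 4 genes were not all on the same side of the control. Rplp0, the stalk base, had 45866 normalized counts in the control, 48965 with shRNA 1 and 48533 with shRNA 2, but with its copies it was lower in both, at -0.04 and -0.03. Rplp1 had 35196, 34336 and 32574. Rplp2, the partner of Rplp1, had 15909, 16720 and 12881, a difference of -0.30 for the library labelled shRNA 2, while the shRNA 1 library was above the control. Rpl12, which binds beside the stalk, had 6698, 7247 and 13394. Its difference was 0.11 with shRNA 1 and 1.0 with shRNA 2, with a limma mean of 0.56 ± 0.40 (SE) and an adjusted p of 0.82.

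Rpl5 and Rpl11 bind the smallest ribosomal RNA before it joins the large subunit, and when unassembled they hold the p53 ligase Mdm2. Rpl5 had 15534 normalized counts in the control, 15773 with shRNA 1 and 15701 with shRNA 2. Rpl11 had 26039, 25487 and 24966. Rpl5 differed by 0.02 with each shRNA, and by -0.05 with its copies. Rpl11 differed by -0.03 and -0.06, and by -0.20 and -0.15 with its copies. Among genes at the catalytic centre, Rpl3 had 32865, 35718 and 32733, which is 0.12 above the control with shRNA 1 and, with its copies, -0.03 and -0.09 from it with shRNA 1 and shRNA 2. Rpl8 and Rpl10 were lower in both libraries, with differences between -0.14 and -0.06.

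Of the 8 genes at the exit tunnel, 3 were above the control with each shRNA and 1 was below it with each, where 34.9% and 35.2% of all features were. The count depends on the setting: 5 were above and 2 below with equal totals, 5 and 1 after quantile normalization, 7 and 0 once the GC and length trend was removed, and 1 and 2 with copies added. Over all features each share lay between 32.3% and 38.0% under these settings. Rpl35, at the tunnel's mouth, had 8465 in the control, 9321 with shRNA 1 and 9204 with shRNA 2. Its limma difference of 0.13 had an adjusted p of 0.85, and with its copies it was at -0.0036 and -0.02. Rpl21, elsewhere in the large subunit, had 11481, 13682 and 12170. Rpl13a had 30159, 25431 and 27142, both shRNA libraries lying below the control. Rpl13a is also known for a part in translational silencing of interferon-gamma responsive mRNAs in human monocytes.

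In the small subunit, the 14 genes of the head, the part that swivels as tRNAs move, held 9 genes below the control with each shRNA and none above it with each, where 35.2% and 34.9% of all features were. Their median difference was -0.06 with shRNA 1 and -0.12 with shRNA 2. With equal totals 2 were higher and 8 lower, after quantile normalization 3 and 8, and after removal of the GC and length trend 3 and 7. Over all features each share lay between 32.3% and 38.0% under these 3 settings. Rps10 had 25052 in the control, 22271 with shRNA 1 and 19016 with shRNA 2. Rps28, which lies near the mRNA exit, had 11045, 9600 and 8148, so that in both genes the library labelled shRNA 2 was the lowest. Rps19, mutated in human Diamond-Blackfan anaemia, had 21371, 18410 and 19242, both shRNA libraries lying below the control.

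Rps18 had the smallest p of the members. It had 3016 normalized counts in the control, 2189 with shRNA 1 and 2355 with shRNA 2, and both GIV shRNA libraries were lower. By limma the difference was -0.41 ± 0.14 (SE), the unadjusted p 0.043 and the adjusted p 0.70. Rps15a, a protein of the small subunit body, was the reverse case, with 22368, 28734 and 25935. By limma it differed by 0.29 ± 0.14 (SE, adjusted p 0.75). Rps6, the substrate of the S6 kinases, had 50691, 59188 and 52047, with the shRNA 1 library above the other 2. Rps19bp1 had 1026, 1058 and 737, with the library labelled shRNA 2 alone below the control.

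The paralogs were measured beside their parents, since some are known to replace them in particular cells. Rpl22l1 had 4561, 4350 and 4615 normalized counts in the control, shRNA 1 and shRNA 2 libraries, and Rpl22 had 10597, 10051 and 10261. Rps27l, a p53 target, had 4196, 4183 and 4305, and Rps27 had 23142, 24082 and 21286. Rpl36al had 7201, 7650 and 7308, and Rpl36a had 9699, 10768 and 9918. All 4 tested paralogs lay within 0.1 of the control in both libraries. The coding sequence of Rps27rt, listed at 0, was 100% identical to that of Rps27, so reads of these genes cannot be told apart over it.

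Copies of the members' coding sequences were counted because reads can pass between near-identical features. A BLASTN search of annotated transcripts (at least 90% identity over at least 50% of the coding sequence) found 1036 copies of 80 members, of which 1013 were annotated as pseudogenes and 96 had a mean of at least 10. Copies held 0.970% of the control total, 0.848% with shRNA 1 and 0.941% with shRNA 2. In 9 members the copies held at least 50% of the summed value of the gene and its copies: Rpl12, Rpl21, Rpl26, Rpl35, Rpl35a, Rpl5, Rps18, Rps2 and Rps7. In 48 members they held under 1%. How many reads of a copy come from the copy's own locus was not tested.

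Stretches of coding sequence show how little separates a gene from its copies. They are from GENCODE M21 transcripts (GRCm38), with positions counted from 1 at the first base of the start codon, and capitals mark the bases that differ within each set. For Rps18 (chr17:33951999-33956001, minus strand) and its copies Gm10260 (chr13:97760072-97760632, minus strand) and Gm11361 (chr13:28257528-28258134, plus strand), both annotated as protein-coding, bases 282 to 431 hold these differences.
Rps18: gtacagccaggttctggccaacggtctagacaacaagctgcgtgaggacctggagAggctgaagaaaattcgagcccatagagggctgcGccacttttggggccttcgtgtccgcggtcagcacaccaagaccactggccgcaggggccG
Gm10260: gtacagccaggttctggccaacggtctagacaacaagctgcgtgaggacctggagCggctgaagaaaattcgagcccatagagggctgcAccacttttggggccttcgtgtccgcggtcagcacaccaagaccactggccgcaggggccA
Gm11361: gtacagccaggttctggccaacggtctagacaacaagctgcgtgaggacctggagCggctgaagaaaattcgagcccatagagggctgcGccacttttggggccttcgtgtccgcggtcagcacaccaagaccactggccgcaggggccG
For Rps7 (chr12:28630854-28635953, minus strand) and its copy Gm6472 (chrX:152909505-152910155, minus strand), the first 80 bases differ at 2 positions.
Rps7: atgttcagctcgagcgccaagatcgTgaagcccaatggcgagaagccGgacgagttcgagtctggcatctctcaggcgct
Gm6472: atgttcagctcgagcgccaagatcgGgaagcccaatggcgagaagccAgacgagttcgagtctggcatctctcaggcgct
For Rpl13 (chr8:123102350-123105244, plus strand) and its copy Gm12918 (chr4:10848420-10849055, plus strand) the coding sequences are identical, and the first 60 bases of both read as follows.
Rpl13: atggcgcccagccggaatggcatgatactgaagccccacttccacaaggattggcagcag

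The 3 members past 1.5-fold with shRNA 2 were each much closer to the control once their copies were added. A sum made up mostly of copies lies closer to the control even where the copies do not change. Copies held 87.0% of the control's family value for Rps2, 81.5% for Rpl12 and 91.8% for Rps18, against 0.507% for Rpl13. How much of each shift was such dilution was not tested. Gm12918, the identical copy of Rpl13, was listed at 0 in the control, 0 with shRNA 1 and 7131 with shRNA 2, while Rpl13 itself had 29551, 27693 and 16999. Summed with all copies, Rpl13 had 29702, 27817 and 24243, and the difference with shRNA 2 was -0.29 in place of -0.80. Rpl12 has an identical copy, Gm10275, with 29161, 26110 and 24076. Their family sum was 36241, 33711 and 37830, and the difference with shRNA 2 was 0.06 in place of 1.0. Rps2 has a copy of 99.4% identity, Rps2-ps10, with 53304, 45598 and 51161, more than the 8032, 6240 and 14091 of Rps2. Their family sum was 61634, 52001 and 65404, and the difference with shRNA 2 was 0.09 in place of 0.81.

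With shRNA 1, Rps6 was also closer to the control once its copies were added. Its identical copy Rps6-ps4 had 12862 in the control, 3599 with shRNA 1 and 9232 with shRNA 2, in the opposite order to the gene. The family sum was 63597, 62817 and 61322, so the difference with shRNA 1 was -0.02 in place of 0.22. For Rps18, Gm10260 had 17251, 17243 and 16582 and Gm11361 had 16425, 12893 and 13731. The family sum of Rps18 was 36756, 32413 and 32813, and by limma it differed by -0.17 ± 0.12 (SE, adjusted p 0.81) in place of -0.41. For Rps28, the identical copy Gm10443 was listed at 0 in the control, 1313 with shRNA 1 and 1367 with shRNA 2. With its copies Rps28 differed by -0.02 and -0.22, in place of -0.20 and -0.44.

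Rps15a and Rps10 kept their differences. With copies, Rps15a was higher by 0.30 with shRNA 1 and 0.18 with shRNA 2, and Rps10 differed by -0.17 and -0.40. Over all 82 families, 6 were above the control with each shRNA, 39 were below it and 37 on opposite sides. With copies added in the same way, 34.8% of all features were above and 35.2% below. No family was 1.5-fold from the control with either shRNA. Differences ranged from -0.25 to 0.30 with shRNA 1 and from -0.48 to 0.18 with shRNA 2. The value of -0.48 was that of Rps19bp1, which is not a ribosomal protein gene and had no copies. Rps10, at -0.40, was the lowest ribosomal protein family. Members and copies together held 5.30%, 5.14% and 5.28% of the library totals.

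**Figure D3:**
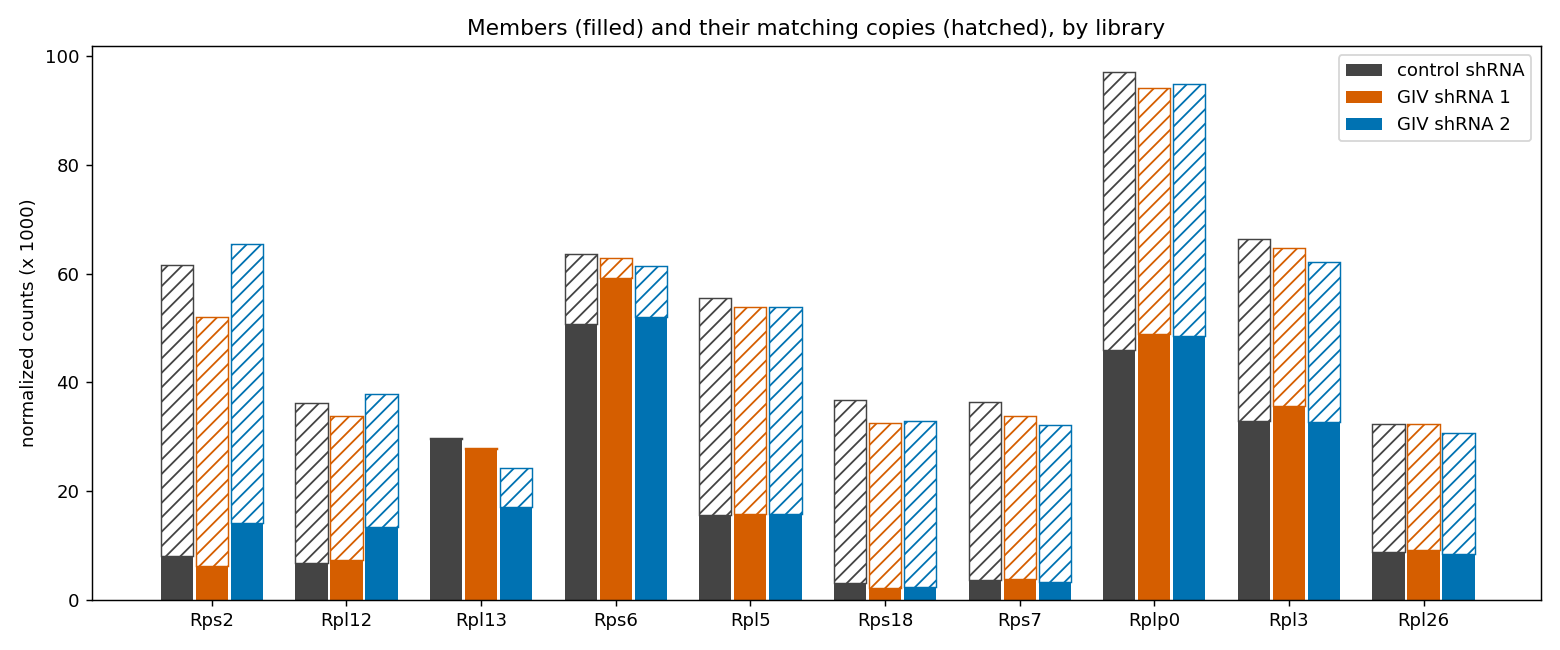
Normalized counts, in units of 1000, of 10 members (filled bars) and their matching copies (hatched bars) in each library. In proportion, the total height differs less between libraries than the filled part for Rps2, Rpl12, Rpl13 and Rps6, as in Rpl12, where the gene's own value was 13394 with shRNA 2 against 6698 in the control and the family sums were 37830 and 36241.

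Members differed from one another in GC content, and their differences from the control followed it in part. Transcript GC content ranged from 40.6% to 60.8% over the 82 members, with a median of 51.7%, and their median transcript length was 774.5 bases compared with 2604 over all features tested. Across members, Spearman's rho of GC content with the log2 difference was -0.40 with shRNA 1 and -0.43 with shRNA 2, and Pearson's r was -0.40 and -0.22. In the 48 members with under 1% of their family value in copies rho was -0.42 and -0.56. Across all 13862 features with a known GC content rho was -0.20 and -0.15. These are correlations across genes, which share 1 control library and are not independent replicates. Of the 21 members lowest in GC content, 6 lay above the control with each shRNA and 3 below. Of the 21 highest, 1 was higher and 12 were lower. Of all features, 34.9% were higher in both and 35.2% lower in both. Shares over features of the same GC range are not given here, so the contrast cannot be called particular to these genes. The part of base composition in the members' differences was not tested further.

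**Figure D4:**
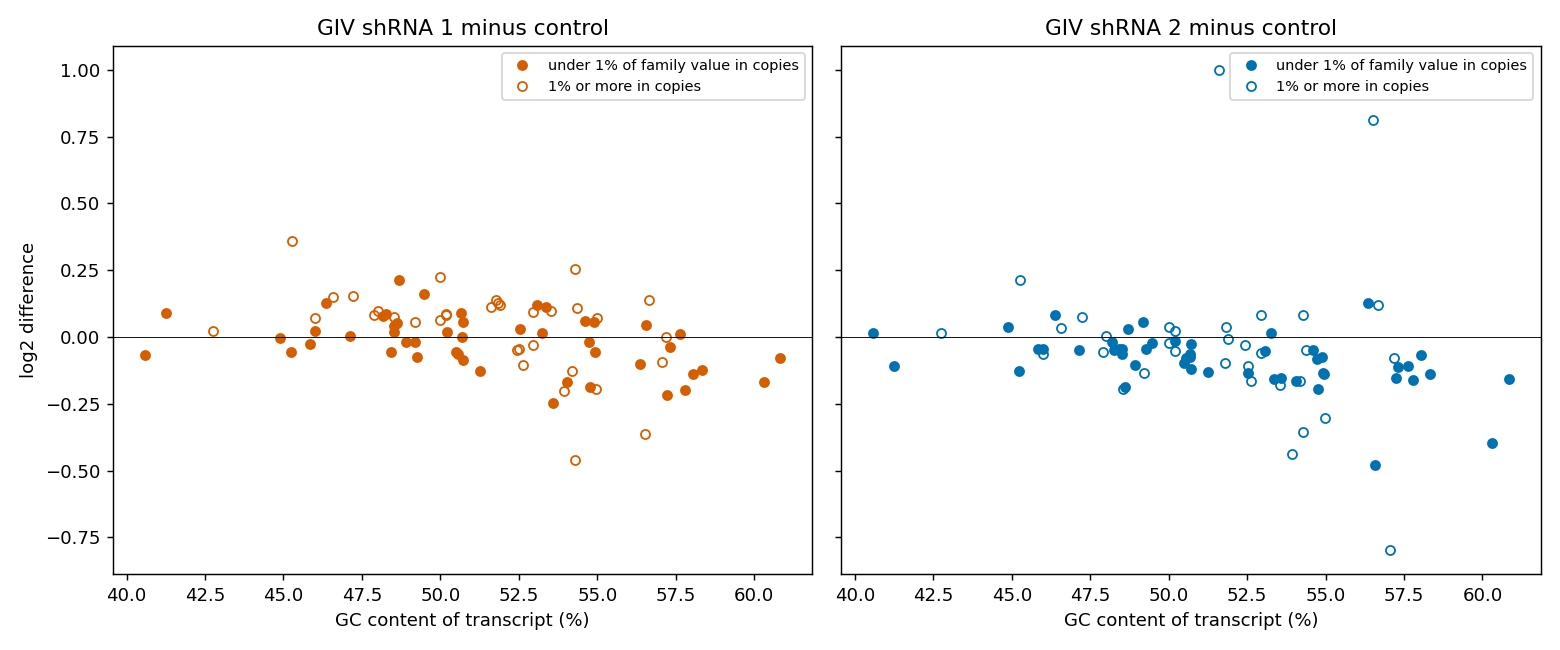
Log2 difference from the control against transcript GC content (%) with shRNA 1 (left) and shRNA 2 (right), 1 point per tested member. Filled points have under 1% of their family value in copies, and among these 48 differences were lower at higher GC content, with a rho of -0.42 and -0.56.

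Genes that act with the ribosomal proteins were compared as lists. Other TOP genes, mainly elongation and initiation factors, were divided, with medians of 0.03 and -0.03. Of 25, 11 lay above and 9 below the control with each shRNA, where 34.9% and 35.2% of all features were. Eif3l had 7798 in the control, 8986 with shRNA 1 and 10350 with shRNA 2, while Fau had 22153, 19303 and 19734. Of 10 TOP genes that host small nucleolar RNAs, 1 was higher in both and 4 were lower, against the same 34.9% and 35.2% of all features. Snhg3 had 861, 642 and 733, and Zfas1 had 3770, 3236 and 3325, both below the control in both libraries. No gene of any list passed limma's adjusted p of 0.05.

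Genes that build ribosomes were more often above the control. Of 48 ribosome biogenesis genes, 35 lay above and 6 below the control with each shRNA, where 34.9% and 35.2% of all features were. Their medians were 0.14 with shRNA 1 and 0.16 with shRNA 2, and between 33 and 35 were higher under every scaling tried. Over all features the share higher in both lay between 32.3% and 37.0% under these scalings. Dkc1, the pseudouridine synthase of box H/ACA particles, had 5131 in the control, 6563 with shRNA 1 and 7852 with shRNA 2, a limma difference of 0.48 ± 0.16 (SE) with an adjusted p of 0.70. Nolc1, a nucleolar chaperone, had 7201, 9162 and 10295. Tsr1, a small subunit assembly factor, had 4743, 5942 and 6446. Eif6, which keeps the large subunit from joining too early, was among the 6 that were lower, with 7697, 5629 and 6564.

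RNA polymerase I transcribes the ribosomal RNA precursor. Of 14 genes of its machinery, 11 lay above and 3 below the control with each shRNA, where 34.9% and 35.2% of all features were. Their medians were 0.12 and 0.15. Under the other scalings between 9 and 11 were higher, against 32.3% to 37.0% of all features. Polr1a, its largest subunit, had 4629 in the control, 5609 with shRNA 1 and 7200 with shRNA 2, the library labelled shRNA 2 being the highest. Of 26 tested genes of mTORC1 and the S6 kinases, 10 were higher in both and 9 lower in both, near the shares of all features. Rps6ka3, a kinase of the RSK family, had 4123, 7260 and 5699, and Rps6kb2, an S6 kinase, had 627, 879 and 1129. Of 15 mitochondrially encoded genes, 12 were lower in both libraries (35.2% of all features), with medians of -0.50 and -0.38. mt-Nd4, a complex I subunit, had 35815, 20279 and 24004, both shRNA libraries lying below the control. The ribosomal RNA mt-Rnr2 was the 1 gene higher in both, with 7979, 8048 and 12211. The other 2, mt-Rnr1 and mt-Nd6, were below the control with shRNA 1 and above it with shRNA 2. The 3 tested nuclear RNAs were divided. Neat1 had 22586, 12486 and 13729, below the control with each shRNA, Malat1 had 9410, 11121 and 12513, above it with each, and Kcnq1ot1 had 286, 276 and 328. Mitochondrially encoded and nuclear RNAs serve as signs of RNA quality, and their part in the differences above was not tested.

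**Figure D5:**
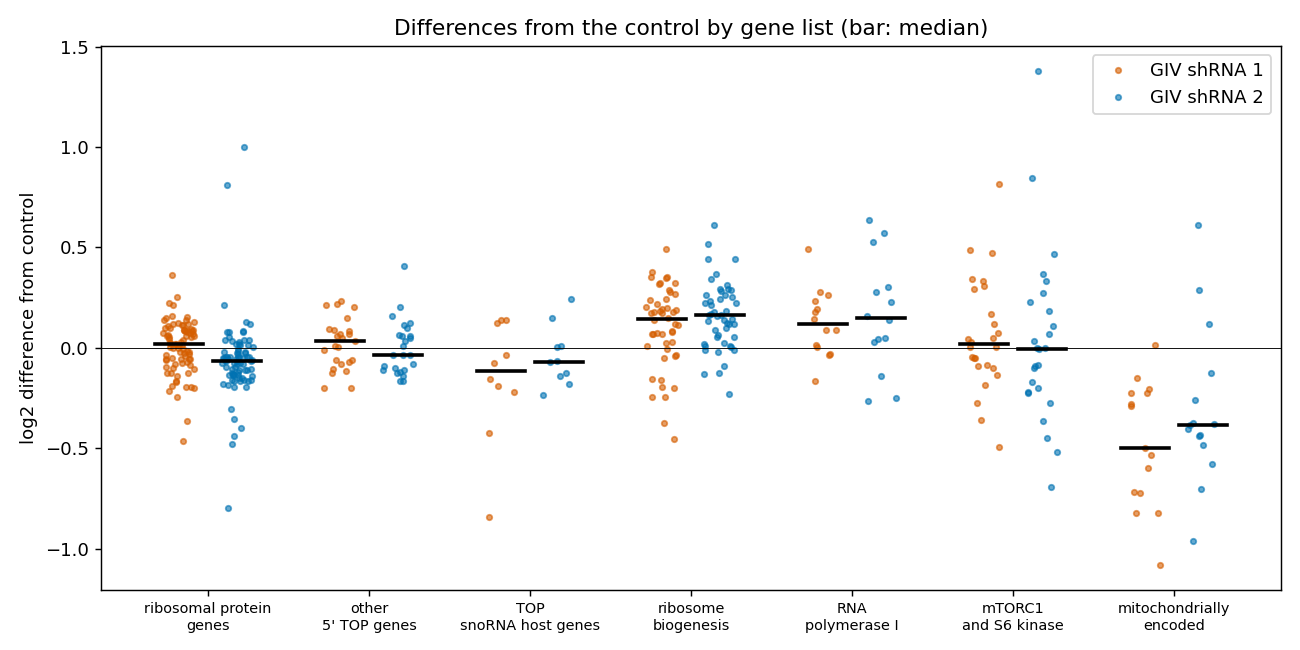
Log2 difference from the control of each tested gene by list, with shRNA 1 and with shRNA 2, the bar marking the list's median. The ribosomal protein genes lie close to 0 (medians 0.02 and -0.06), the ribosome biogenesis genes have medians of 0.14 and 0.16, and the mitochondrially encoded genes have medians of -0.50 and -0.38.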

How the data were processed

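The values are the authors' deposited normalized counts, a signal that is never negative, with 1 column per library. For the authors' own steps, the submitters' processing notes list Salmon, DESeq, DESeq2 and the build GRCm38, with no version or role. The sources used here do not say how reads that match several features were divided. The commonest lowest value, about 1 read, was 0.931, 1.11 and 0.966 in the control, shRNA 1 and shRNA 2 libraries, so sampling error is small for most members. Identifiers were matched to GENCODE M21 (GRCm38), which gave a symbol for 54097 features and none for 234.

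Features with a mean of at least 10 were tested on log2(value + 1) with limma 3.58.1 in R 4.3.3 (mean-variance trend, two-sided, Benjamini-Hochberg adjustment over 13877 features), the control library against both GIV shRNA libraries. The single control was taken to vary like the shRNA libraries. The script was tested on simulated data. Single shRNAs were compared with no test. Copies were found with BLASTN 2.17.0 on the sense strand.

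The members and gene lists were chosen with earlier results of these data known. Named members were the highest by level, the 6 with the largest positive and the 6 with the largest negative mean difference, the paralogs with their parents and members of known special function. Of each list the 4 with the largest difference were eligible. Rpl8, Rps19 and the copies of Rps7, Rps18 and Rps28 were named after their values were seen. Rps4l is annotated as a pseudogene and was not a member. Alternatives covered pseudocount, filters, scaling, the GC and length trend, copies, fold size, denominators and leaving out each library.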

Additional observations from a re-analysis of the deposited data

How the results depend on the processing

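No member passed limma's adjusted p of 0.05 under the main setting or any of the 15 alternative fits, and the lowest member value of adjusted p ranged from 0.44 to 0.82. The number of members at least 1.5-fold from the control with shRNA 1 was 1 in place of 0 with no filter and with a mean of at least 1, where Rpl3l enters, and 3 at a fold of 1.2. With shRNA 2 it was 0 in place of 3 when pseudogene copies or copies of any biotype were added, 8 at a fold of 1.2 and 0 at a fold of 2. The share of all features at folds of 1.2 and 2 is not given here, so those counts have no background. Members higher in both libraries numbered 24 with equal totals, 25 after quantile normalization, 35 with the GC and length trend removed, 8 with pseudogene copies and 6 with copies of any biotype, in place of 15. Members lower in both numbered 18 in place of 31 with that trend removed. Over all features the share higher in both lay between 32.3% and 37.0% under these settings, and 34.0% were lower in both with that trend removed. The median difference became 0.041 for both libraries and 0.082 for shRNA 1 with the trend removed, and 0.012 for shRNA 2 after quantile normalization. The median of shRNA 2 minus shRNA 1, -0.08, became -0.0043 with equal totals and 0.014 after quantile normalization. The cause of these shifts was not tested. Leaving out shRNA 1 or shRNA 2 leaves a single comparison. Without shRNA 1, 20 members were higher than the control and 62 lower, and without shRNA 2, 46 were higher and 36 lower. Over all features tested the median difference was -0.0021 with shRNA 2 and 0.00052 with shRNA 1, so about as many lay above the control as below it. The members' medians were -0.06 and 0.02. The members' share of the control, shRNA 1 and shRNA 2 libraries was 4.59%, 4.53% and 4.60% of protein-coding counts and 4.40%, 4.34% and 4.39% without mitochondrially encoded genes. It was 5.18%, 5.04% and 5.16% with pseudogene copies and 5.30%, 5.14% and 5.28% with copies of any biotype, an alternative chosen after seeing the data. Of 495 alternative values of 33 named members, 455 stayed within the spread between libraries and 16 members changed sign under some alternative. No paired analysis was possible because the control group has a single library, so the groups share fewer than 2 replicate numbers.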
